A study of Rattus norvegicus with 24 samples.

Results

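Lungs of rats that inhaled Iraqi sand during a course of cigarette smoke were compared with lungs of rats that inhaled silica during the same smoke. The comparison set 4 rats given smoke and Iraqi sand (animals 402, 404, 405 and 406) against 4 given smoke and silica (animals 602, 603, 604 and 605), 8 of the 24 arrays of the series. Each gene was represented by its brightest probe set over the 24 arrays among those with exactly 1 gene symbol, which gave 14217 genes. The 8 animals were males of the outbred Sprague-Dawley strain, aged 17 weeks at sampling in the labels and 10 to 15 weeks in the series text. All 8 breathed cigarette smoke nose-only at 0.48 mg per litre (wet total particulate matter), 3 hours a day and 5 days a week, for 5 weeks in the treatment protocol and 6 weeks in the series text. Both particles were given to the whole body at 1 mg per cubic metre, 18 hours a day in the labels and up to 19 in the series text, 7 days a week for 2 weeks. Further groups of 4 rats served as context: Iraqi sand without smoke, silica without smoke, smoke with clean air in place of particles (smoke alone), and clean air by both routes, with neither smoke nor particles (rats 102 to 105). RNA of the right caudal lobe was hybridised to 1 Affymetrix Rat230_2 array per rat.

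Inhaled mineral particles are taken up mainly by alveolar macrophages, the phagocytes of the air spaces. Crystalline silica can damage the lysosomes of these cells and is known for lasting inflammation and scarring of the lung, while desert sand is a mixture of minerals. Cigarette smoke also enlarges the macrophage population, and its oxidants and aromatic hydrocarbons are known to induce the antioxidant genes controlled by NRF2 and the targets of the aryl hydrocarbon receptor.

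The lobe was recognisable as lung in both groups, since the surfactant protein Sftpc, of alveolar type 2 cells, and the club cell secretory protein Scgb1a1 were among the brightest genes. Sftpc averaged 14.85 ± 0.04 after smoke and sand and 14.85 ± 0.03 after smoke and silica (log2 values, SD, n = 4 each). Scgb1a1 averaged 14.90 ± 0.09 with sand and 14.82 ± 0.14 with silica, and Ager, a receptor of alveolar type 1 cells, 13.16 ± 0.12 with sand and 13.09 ± 0.12 with silica. Rat 604 of the silica group stood apart. Its highest correlation with any other array was 0.9886. In this rat 181 genes were at least 2-fold above and 71 at least 2-fold below the mean of its group mates. Counts, list medians and some gene differences are therefore given with and without it. Correlations ran from 0.9904 to 0.9948 within the sand group, from 0.982 to 0.995 within the silica group and from 0.9812 to 0.9948 between the groups. RNA integrity numbers, known for 3 rats of each group, were 8.7 to 9.2 with sand and 8.7 to 9.3 with silica.

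No gene passed the threshold between sand and silica under smoke (limma, adjusted p under 0.05, 0% of 14217 genes). An unadjusted p under 0.05 was reached by 989 genes, or 6.96%, of which 469 (3.3%) were higher and 520 (3.66%) lower with sand. Without rat 604 the count past the threshold was again 0, and 615 genes (4.33%) had an unadjusted p under 0.05, of which 350 (2.46%) were higher and 265 (1.86%) lower with sand. Only fits with other settings called genes: 1 on the 8 arrays alone, 11 with array quality weights, 1 after a further quantile normalization, 1 without rat 404 and 1 without rat 605. The rats of the groups did not overlap in 955 genes, or 6.72%, with 469 (3.3%) higher and 486 (3.42%) lower with sand. The median log2 difference of all genes was 0.0014, and 50.4% of genes were higher with sand.

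The intervals were narrow for most genes. The 95% interval of the difference lay within 1.5-fold either way for 12468 genes (87.7%) and within 2-fold for 13931 (98.0%). In 19 genes (0.134%) the mean was at least 1.5-fold higher with sand and in 57 (0.401%) at least 1.5-fold lower. Without rat 604 these counts were 31 (0.218%) and 37 (0.26%). The 3 genes (0.0211%) at least 2-fold higher were the secreted goblet cell protein Clca1, at 8.52 ± 1.04 with sand and 7.33 ± 1.46 with silica, the digestive protease precursor Ctrb1, at 6.45 ± 1.07 with sand and 5.27 ± 0.18 with silica, and the mitotic kinase Aurkb. Clca1 differed by 1.19 ± 1.07 (adjusted p = 0.90, limma) and Ctrb1 by 1.18 ± 0.57 (adjusted p = 0.717, limma). Of the 7 genes (0.0492%) at least 2-fold lower, the resistin-like protein Retnla averaged 11.70 ± 0.91 with sand and 12.94 ± 1.01 with silica (adjusted p = 0.72, limma). The keratin Krt6c averaged 5.68 ± 0.05 with sand and 6.88 ± 1.97 with silica, a spread that was larger than the difference, which was -1.21 with all rats and -0.22 without rat 604. These 5 genes were chosen after their values were seen, and none passed. In bulk tissue, fewer cells of a type and less RNA per cell cannot be told apart.

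The 3 genes nearest the threshold were all lower with sand. Slbp, the stem-loop binding protein that binds the end of histone messenger RNAs and whose level follows the cell cycle, is given with its promoter from the RefSeq table of build GRCr8 because it had the largest of these differences. The sequence covers chr14:81295998-81296297 on the plus strand, 300 bases around the annotated start, 5′ to 3′. Capitals mark matches to the letters TTTCCCGC (an E2F motif) and GGGCGG (a GC box) on either strand, 1 and 3 in number, and the first GC box match overlaps the E2F match.
Slbp: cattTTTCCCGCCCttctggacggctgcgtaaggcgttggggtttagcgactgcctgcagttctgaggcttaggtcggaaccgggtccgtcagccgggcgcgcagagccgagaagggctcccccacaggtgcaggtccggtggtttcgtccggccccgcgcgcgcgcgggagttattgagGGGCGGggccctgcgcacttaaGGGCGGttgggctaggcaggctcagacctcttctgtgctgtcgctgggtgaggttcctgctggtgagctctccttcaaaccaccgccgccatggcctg
Of 33469 promoters of this length, 0.974% hold TTTCCCGC and 33.1% hold GGGCGG. The motif TTTCCCGC was chosen after this sequence had been read. The E-box CACGTG, held by 6.42% of promoters, the TATA box TATAAA, held by 14.2%, and the CCAAT box, held by 37.5%, had 0 matches on either strand of this window. A match describes the letters and says nothing of binding.

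Slbp stood at 7.56, 7.54, 7.38 and 7.44 in the rats given smoke and sand, against 8.23, 8.32, 8.36 and 8.33 in those given smoke and silica. All 4 sand rats lay below all 4 silica rats, with little spread in either group. Slbp, like Kctd4 and Acyp2 below, was chosen for low p and no overlap, and 6.72% of all genes also had no overlap. The difference was -0.83 ± 0.15 (SE), or 0.562-fold, with an adjusted p of 0.0976 in limma, and -0.81 without rat 604. Rats given smoke alone, at 7.44 to 7.91, overlapped the sand rats and lay below the silica rats. The probe set is shared between transcripts, as its name says, and the other probe sets of Slbp, which are dim, differed by 0.08 and 0.10.

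Kctd4, a member of the potassium channel tetramerisation domain family, stood at 5.08, 5.19, 4.99 and 5.10 with sand and at 5.74, 6.15, 5.82 and 5.39 with silica. The silica rats were higher without overlap, and differed more among themselves than the sand rats. The difference was -0.68 ± 0.12 (adjusted p = 0.0976, limma). The second probe set of the gene, with a mean of only 3.45 over the 24 arrays, gave -0.33. Acyp2, an enzyme that splits acyl phosphates, stood at 5.12, 4.94, 5.37 and 5.28 with sand and at 6.04, 6.11, 5.72 and 5.84 with silica. Its groups were again apart, by -0.75 ± 0.14 (adjusted p = 0.106, limma). Against smoke alone, the silica rats lay 0.62 higher for Slbp, 0.56 for Kctd4 and 0.57 for Acyp2, while the sand rats stood at -0.21, -0.13 and -0.18. None of these 6 differences passed, and both sets share the smoke-alone rats. The same sand and silica values chose the genes, which favours silica above and sand below a further group, so this order is no independent result.

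**Figure D1:**
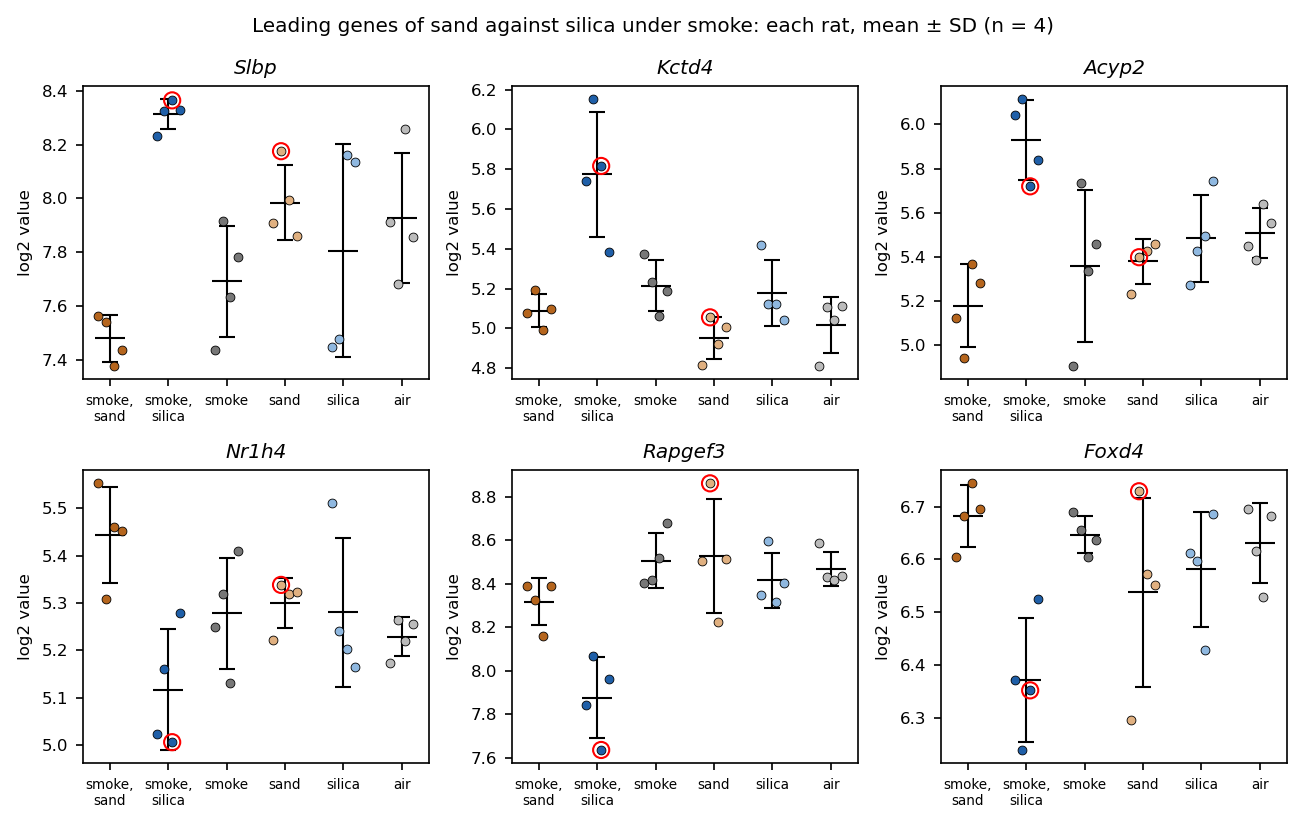
Log2 values (y axis) of 3 genes lower and 3 higher with sand than with silica under smoke, in all 6 groups of 4 rats; points are rats, bars the mean ± SD, and red circles mark rats 604 and 302. The genes were chosen for low p and no overlap between the smoke and sand rats and the smoke and silica rats, so each panel shows none. No overlap, in one direction or the other, was found in 6.72% of all genes. For Slbp, Kctd4 and Acyp2 the smoke and silica rats have the highest mean of the 6 groups, which the choice of these genes favours.

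Several other genes with low p and no overlap were also lower with sand. The endoplasmic reticulum protein Tmem33 stood at 7.57, 8.06, 7.83 and 7.45 with sand and at 8.26, 8.32, 8.28 and 8.07 with silica, a difference of -0.51 ± 0.10 (adjusted p = 0.228, limma). The spread was wider with sand, and rat 404 lay just below the lowest silica rat. Pcyox1, which degrades the lipid-carrying cysteines of prenylated proteins in lysosomes, stood at 9.67, 9.69, 9.70 and 9.31 with sand and at 10.14, 10.10, 10.23 and 10.35 with silica. The difference was -0.61 ± 0.13 (adjusted p = 0.283, limma), and rat 406 lay below its group mates. Sppl2a, a protease that cuts within membranes of lysosomes, differed by -0.74 ± 0.18 (adjusted p = 0.44, limma), with rats 402 and 406 at 9.64 and 9.69 and the other sand rats at 10.53 and 10.43. The remaining probe sets of Sppl2a gave -0.22 to -0.35. Further members of this set were Rab7b, a GTPase of late endosomes, at -0.32 ± 0.08, Atp6v1d, a subunit of the pump that acidifies lysosomes, at -0.26 ± 0.07, and the splicing proteins Lsm5, at -0.32 ± 0.08, and Rbm17, at -0.29 ± 0.07. Dimmer probe sets gave -0.17 for Rab7b, -0.02 and -0.08 for Rbm17 and -0.21 for Tmem33. Dcun1d5, a factor that attaches NEDD8 to cullins, stood at -0.44 ± 0.11, Eci3, an isomerase of fatty acid oxidation, at -0.35 ± 0.08, and the PDZ protein Sdcbp2 at -0.57 ± 0.13. Also lower at low p were Serf1 at -0.43 ± 0.09, Rabl3 at -0.46 ± 0.10, Nsmce3 at -0.52 ± 0.13 and Rasal2 at -0.43 ± 0.11. The dimmer probe set of Nsmce3 gave -0.14. The genes of this paragraph were named for their p, and a shared function was not tested.

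Among genes higher with sand, Nr1h4, the bile acid receptor FXR, stood at 5.55, 5.31, 5.46 and 5.45 with sand and at 5.02, 5.16, 5.01 and 5.28 with silica, a difference of 0.33 ± 0.08 (adjusted p = 0.44, limma). The lowest sand rat lay just above the highest silica rat. Rapgef3, an exchange factor activated by cyclic AMP, stood at 8.39, 8.33, 8.16 and 8.39 with sand and at 7.84, 8.07, 7.64 and 7.96 with silica. Rat 604 was the lowest, and the difference was 0.44 ± 0.11, or 0.36 without that rat. Against smoke alone Rapgef3 stood at -0.19 with sand and -0.63 with silica (adjusted p = 1.00 and 0.0582, limma). The forkhead factor Foxd4 stood at 6.60, 6.68, 6.74 and 6.70 with sand and at 6.37, 6.24, 6.35 and 6.52 with silica, 0.31 ± 0.08 apart. Its sand rats lay near the mean of smoke alone, 6.65 ± 0.04. Other members were the sorting receptor Sorcs3 at 0.41 ± 0.10, the carbonic anhydrase relative Car11 at 0.32 ± 0.09 and the Polycomb-associated protein Phf1 at 0.27 ± 0.07. Dimmer probe sets gave 0.03 for Sorcs3 and 0.21 and 0.15 for Car11. Nr1h4 and Sorcs3 were themselves dim, with means of 5.27 and 5.12 over the 24 arrays. The genes of this paragraph were named for their p, so their positions against smoke alone are no independent result.

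Gene lists were described by their counts and medians, beside 3.3% of all genes higher and 3.66% lower at an unadjusted p under 0.05 and a median of 0.0014 over all genes. Without rat 604 those shares were 2.46% and 1.86%. The 38 lists held 748 distinct measured genes, and 0 members passed in limma over all genes. The largest negative medians belonged to proliferation, basal airway cells and alveolar macrophages, and all of them were closer to 0 or above it without rat 604.

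**Figure D2:**
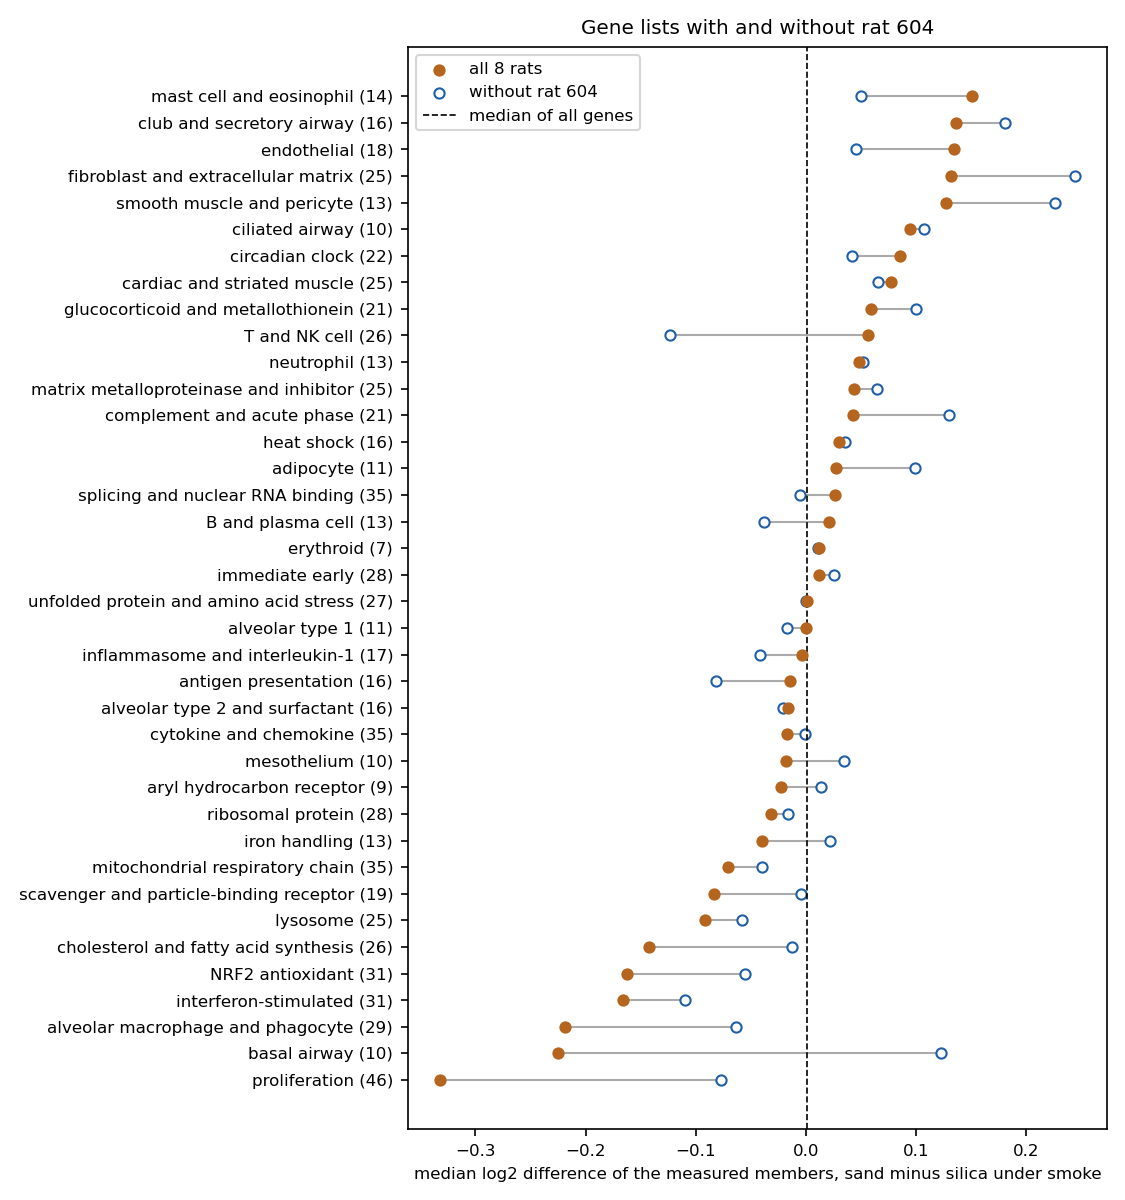
Median log2 difference, sand minus silica under smoke (x axis), of the measured members of 38 gene lists (member counts in brackets); filled points are all 8 rats, open points leave out rat 604, and the dashed line is the median of all genes. Proliferation stands at -0.33 with all rats and -0.08 without rat 604, and basal airway at -0.22 and 0.12.

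Alveolar macrophage and phagocyte genes were mostly lower with sand, 21 of 29, or 17 without rat 604. The other 8, or 12 without rat 604, were higher, C1qa by the most with all rats, at 0.24. The members named below are all among the lower ones. Of these genes 6 had an unadjusted p under 0.05, or 2 without rat 604. Their median difference was -0.22, or -0.06 without rat 604. Mmp12, the elastase of macrophages, stood at 7.55, 8.19, 7.51 and 8.63 with sand and at 9.01, 9.93, 10.07 and 7.40 with silica. Rat 605 was the lowest of all 8, so the groups overlapped despite a difference of -1.13 ± 0.48 (adjusted p = 0.666, limma). Ctsk, a collagen-degrading lysosomal protease, stood at 7.85, 8.48, 8.09 and 8.49 with sand and at 8.28, 8.80, 9.44 and 8.96 with silica, a difference of -0.64 ± 0.22. Rat 604 was the highest silica rat for Mmp12 and for Ctsk. Plin2, which coats lipid droplets, stood at 11.10, 11.31, 11.25 and 11.35 with sand and at 11.48, 11.45, 11.71 and 11.77 with silica. Its groups did not overlap, and the difference of -0.35 ± 0.11 (adjusted p = 0.563, limma) was -0.31 without rat 604. Gpnmb, a glycoprotein of lipid-laden macrophages, was bright in both groups, at 13.19 ± 0.22 with sand and 13.46 ± 0.05 with silica.

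Lysosomal genes were lower with sand in 24 of 25, or 20 without rat 604. Their median was -0.09, or -0.06 without that rat. The acid lipase Lipa stood at -0.25 ± 0.11, the peptidase Tpp1 at -0.15 ± 0.06 and the membrane protein Scarb2 at -0.44 ± 0.17. Scarb2 had no overlap, with rat 604 the highest. Interferon-stimulated genes were lower in 25 of 31, or 26 without rat 604, with 0 at an unadjusted p under 0.05. Their median was -0.17, or -0.11 without rat 604. The list mean ran from 8.20 to 9.01 in the sand rats and from 8.58 to 8.94 in the silica rats, so the sand rats spread to both sides of the silica rats. Of the mitochondrial respiratory chain genes 31 of 35 were lower, by a median of -0.07. Without rat 604, 25 were lower, by a median of -0.04. That rat was above all its group mates in 30 of the 35, beside 5169 of all 14217 genes.

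Antioxidant genes under NRF2 were lower with sand in 27 of 31, or 24 without rat 604. Their median was -0.16, or -0.05 without rat 604, and 4 had an unadjusted p under 0.05, or 0 without it. Rat 604 was above all its group mates in 25 of the 31, beside 5169 of all 14217 genes. Gpx2, a glutathione peroxidase of epithelia, stood at 12.02, 11.56, 11.72 and 12.01 with sand and at 12.32, 12.30, 12.39 and 11.82 with silica, -0.38 ± 0.16 apart. Rat 605 lay among the sand rats. The glutathione synthesis gene Gclm differed by -0.44 ± 0.19 and Srxn1, which repairs oxidised peroxiredoxins, by -0.56 ± 0.23 (adjusted p = 0.671 and 0.666, limma). Nqo1, a quinone reductase, differed by -0.43 ± 0.25 with all rats and -0.08 without rat 604, which stood at 12.72 against 11.20 to 11.55 in its group mates. The aryl hydrocarbon receptor target Cyp1a1 averaged 7.88 ± 0.45 with sand and 7.65 ± 0.48 with silica.

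Proliferation genes were lower with sand in 42 of 46, or 29 without rat 604, and 10 had an unadjusted p under 0.05, or 1 without rat 604. Rat 604 was above all its group mates in 44 of the 46, beside 5169 of all 14217 genes. The list mean was 6.99, 7.06, 7.06 and 7.62 in the sand rats and 7.13, 7.37, 8.32 and 7.19 in the silica rats. Rat 604 was the highest and sand rat 406 the next. The proliferation marker Mki67 stood at 5.95, 6.15, 6.18 and 7.25 with sand and at 6.63, 6.88, 8.90 and 6.34 with silica. Its difference of -0.81 ± 0.40 (adjusted p = 0.717, limma) was -0.24 without rat 604. Ccna2, a cyclin of DNA replication, differed by -0.91 ± 0.32 and by -0.45 without that rat. The largest difference in the list ran the other way: Aurkb averaged 9.62 ± 0.89 with sand and 8.54 ± 1.17 with silica, 1.08 ± 0.68 apart (adjusted p = 0.805, limma), and 1.11 without rat 604.

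Basal airway cell genes were lower in 10 of 10, or 3 without rat 604. Their median was -0.22, but 0.12 without that rat. The basal cell keratin Krt5 stood at 5.12, 5.72, 6.26 and 6.15 with sand and at 5.66, 5.45, 8.69 and 5.63 with silica. Apart from rat 604 the groups overlapped, and the difference of -0.54 ± 0.61 was 0.23 without it. Krt17 and the cornified envelope protein Sprr1a, at -0.40 ± 0.33 and -0.66 ± 0.44, stood at 0.09 and -0.02 without that rat.

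**Figure D3:**
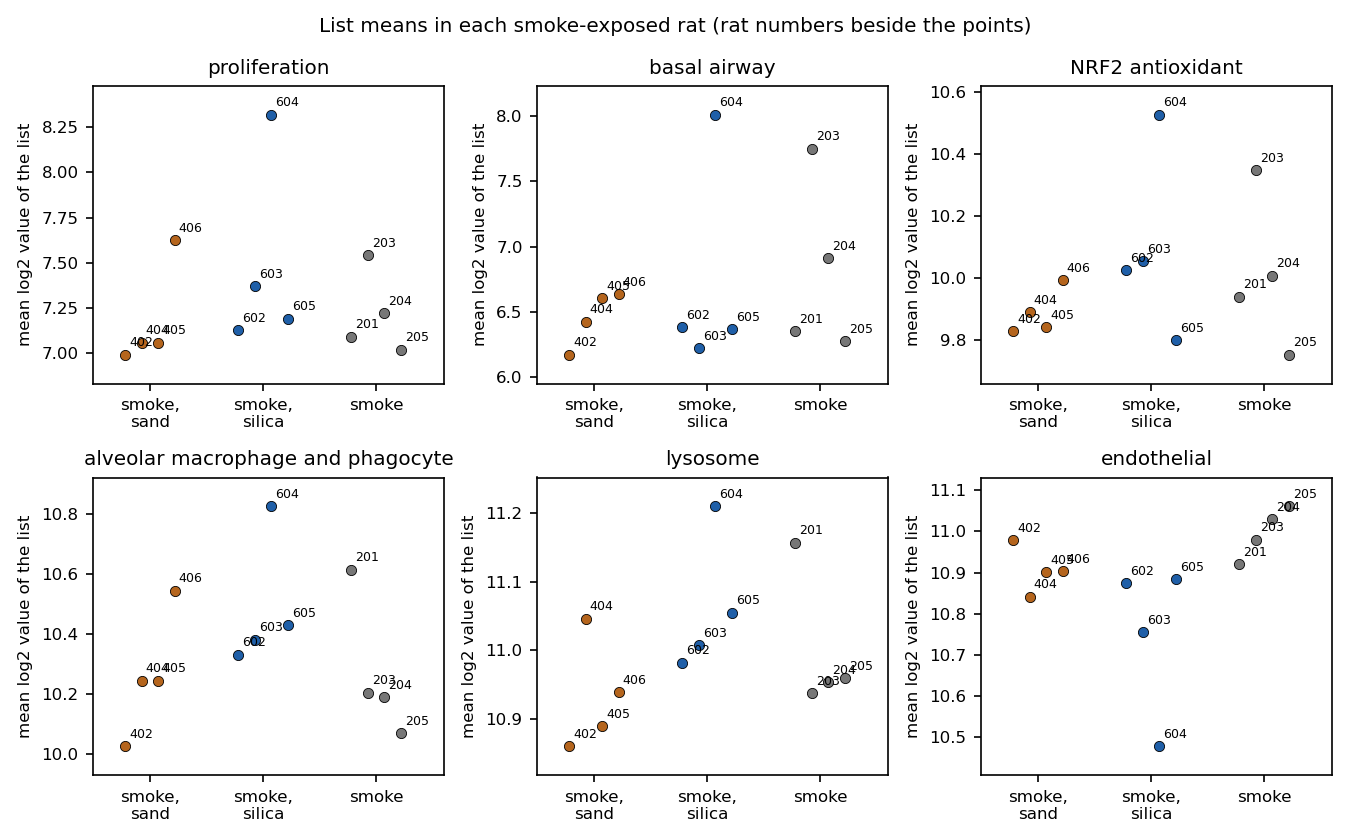
Mean log2 value of 6 gene lists (y axis) in each rat given smoke and sand, smoke and silica, or smoke alone, with rat numbers beside the points. Rat 604 is the highest silica rat in 5 panels and the lowest in the endothelial panel, at 10.48.

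Endothelial genes were higher with sand in 15 of 18, or 11 without rat 604. Their median was 0.13, or 0.05 without rat 604, and 3 had an unadjusted p under 0.05, or 0 without it. The tight junction protein Cldn5 stood at 12.27, 12.31, 11.98 and 12.45 with sand and at 12.11, 11.98, 11.37 and 12.08 with silica, 0.37 ± 0.15 apart, or 0.20 without rat 604. Rat 604 was also the lowest in the TGF-beta co-receptor Eng, at 10.18, and in the vessel transcription factor Sox18, at 9.52, and without it their differences of 0.44 ± 0.21 and 0.44 ± 0.20 were 0.17 and 0.15. Fibroblast and matrix genes had a median of 0.13, or 0.24 without rat 604, and smooth muscle genes 0.13, or 0.23. In both lists rat 604 had the highest mean of the silica rats, at 10.39 and 9.03. Rat 406 had the highest of the sand rats, at 10.43 and 9.51, and was kept when rat 604 was left out. The collagen Col1a1 stood at 9.53, 9.44, 9.42 and 10.88 with sand and at 9.18, 9.61, 10.61 and 8.75 with silica, so 1 rat of each group was high.

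Inflammatory genes gave no common direction. Of 35 cytokines and chemokines 15 were higher and 20 lower with sand, by a median of -0.02, and 0 had an unadjusted p under 0.05. The neutrophil-attracting chemokine Cxcl1 averaged 10.42 ± 0.60 with sand and 10.63 ± 0.37 with silica, with an interval of the difference from -0.76 to 0.34. The monocyte-attracting Ccl2 stood at 7.15, 7.12, 7.11 and 10.19 with sand and at 7.25, 8.25, 10.02 and 7.55 with silica, each group with 1 high rat. Il1b, the cytokine released through the inflammasome, averaged 9.03 ± 0.36 with sand and 8.94 ± 0.36 with silica (interval -0.65 to 0.84). Neutrophil markers had a median of 0.05, and alveolar type 2 and type 1 markers -0.02 and 0.00. The clock repressor Per1 differed by 0.49 ± 0.20 and Nr1d1 by 0.34 ± 0.22 (adjusted p = 0.659 and 0.805, limma), in a clock list with a median of 0.09.

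Without smoke, more genes passed between sand and silica, though the counts were not tested against each other. There, 39 genes (0.274%) passed, of which 38 (0.267%) were lower with sand and Matn2, a matrix protein, was higher. The count was 25 without rat 503, 6 on those 8 arrays alone and 2 when the fit adjusted for RNA integrity (19 arrays). It was 36 without rat 302 of the group given sand without smoke, whose highest correlation with any other array was 0.9604. An unadjusted p under 0.05 was reached by 1698 genes (11.9%), beside 6.96% under smoke. Unlike the genes that passed, most of the 1698 were higher with sand, 1271 (8.94%) against 427 lower (3%). The rats did not overlap in 676 genes (4.75%), fewer than the 6.72% under smoke, with 504 (3.55%) higher and 172 (1.21%) lower with sand. The rats without smoke are not shared with the smoke groups, but both contrasts take each gene's spread from the same fit. The shares of these genes under smoke are therefore no independent check. The 38 genes had a median of -0.79 without smoke, which chose them, and of -0.01 under smoke, where 24 were lower and 14 higher. Under smoke 4 of the 38, or 10.5%, were lower at an unadjusted p under 0.05, beside 3.66% of all genes, namely Cped1, Arid5b, Xpo4 and Tma7, and Atxn2 was higher. Xpo4, a nuclear export receptor, stood at 7.53, 7.64, 7.58 and 7.47 with smoke and sand and at 7.98, 7.85, 7.81 and 7.79 with smoke and silica. It differed by -0.30 ± 0.09 under smoke (adjusted p = 0.533, limma) without overlap. These 5 genes were named for their p, after their values were seen.

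**Figure D4:**
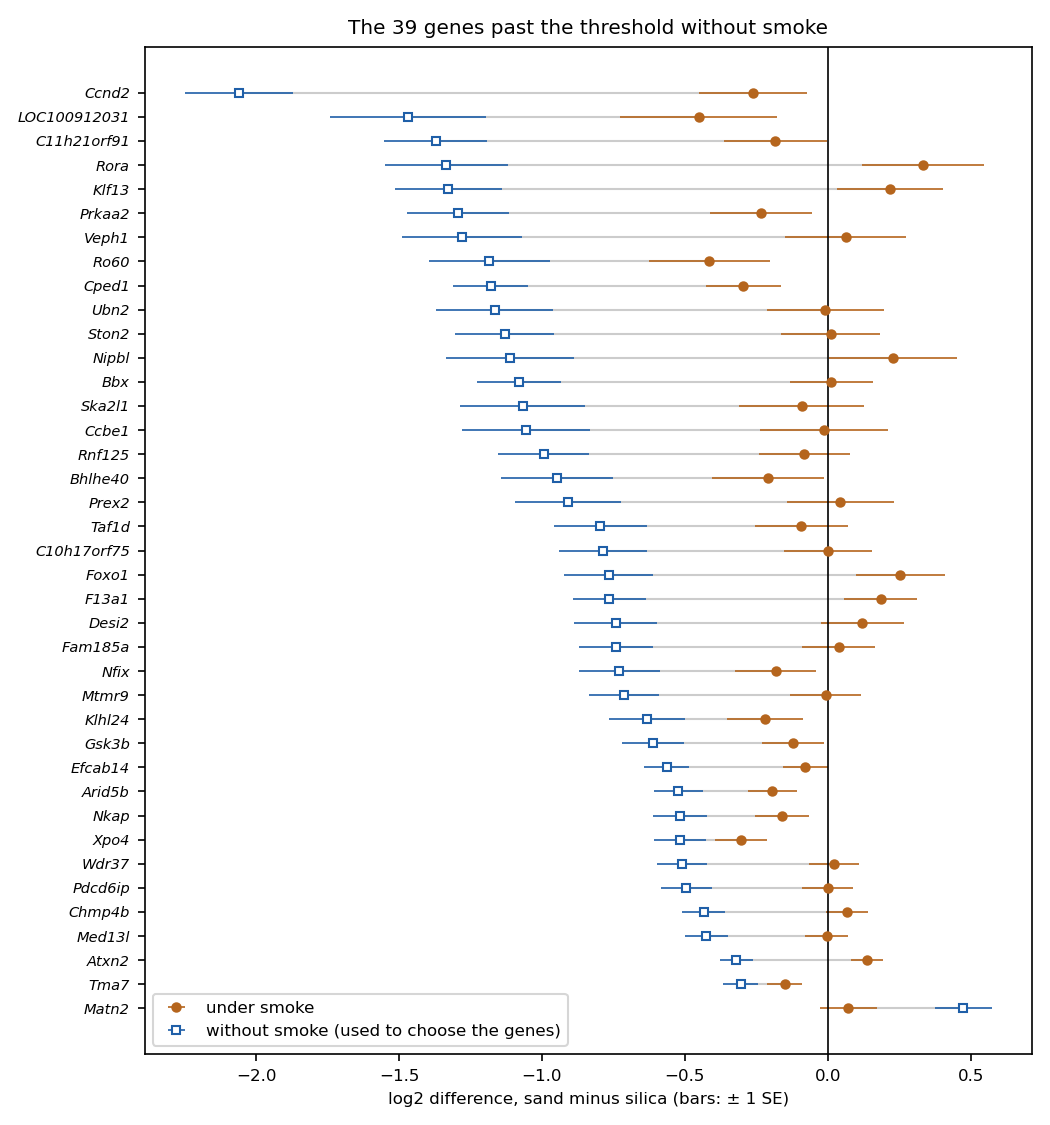
Log2 difference, sand minus silica (x axis, bars ± 1 SE), of the 39 genes past the threshold without smoke, under smoke (filled circles) and without smoke (open squares, the values that chose them). The 38 lower genes have a median of -0.79 without smoke and -0.01 under smoke.

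The difference between these contrasts passed for 1 gene (0.00703%), Ccnd2, a D-type cyclin that drives entry into the cell cycle. Ccnd2 stood at 9.67, 10.70, 10.10 and 10.09 with smoke and sand and at 10.56, 10.47, 10.32 and 10.26 with smoke and silica. Without smoke it stood at 9.05, 9.15, 8.88 and 8.34 with sand and at 11.01, 10.65, 11.00 and 11.00 with silica. The groups overlapped under smoke and were far apart without it. Sand minus silica was -0.26 ± 0.19 under smoke and -2.06 ± 0.19 without smoke, a difference between contrasts of 1.80 ± 0.27 (adjusted p = 0.0176, limma). No gene passed this test without rat 501, 503, 504, 604 or 605, each left out singly, on the 16 arrays of the 4 groups alone, or when the fit adjusted for RNA integrity, which 19 arrays have. The transcription factor Klf13 followed at 1.54 ± 0.26 (adjusted p = 0.0522, limma), at 0.22 ± 0.19 under smoke and -1.33 ± 0.19 without it. It did pass without rat 302, an array that stands apart in the group given sand without smoke, with an adjusted p of 0.0049.

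Against smoke alone, each particle raised 2 genes (0.0141% of those tested). These comparisons share the smoke-alone rats. Cped1, a cadherin-like protein, passed in both and is shown with its promoter for that reason, the first of 2 entries in the RefSeq table of build GRCr8, chr4:51482247-51482546 on the plus strand, 5′ to 3′. Capitals mark its 1 match to GGGCGG, on the opposite strand, and the other 4 motifs had 0 matches.
Cped1: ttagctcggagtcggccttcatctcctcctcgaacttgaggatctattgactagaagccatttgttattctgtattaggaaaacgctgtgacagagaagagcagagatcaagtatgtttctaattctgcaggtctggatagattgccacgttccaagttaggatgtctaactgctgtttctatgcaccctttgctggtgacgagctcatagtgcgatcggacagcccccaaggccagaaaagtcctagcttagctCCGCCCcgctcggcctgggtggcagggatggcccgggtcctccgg
Cped1 stood at 8.67, 8.55, 8.37 and 8.34 with smoke and sand, at 9.02, 8.92, 8.59 and 8.59 with smoke and silica, and at 7.79, 7.69, 7.78 and 7.52 with smoke alone. Every particle rat lay above every rat of smoke alone. It rose by 0.79 ± 0.13 with sand (adjusted p = 0.038, limma) and by 1.08 ± 0.13 with silica (adjusted p = 6.2e-04, limma), and sand minus silica was -0.30 ± 0.13 (adjusted p = 0.677, limma). The sand count was 0 without rat 201, 203, 204, 205, 402, 404 or 406, each left out singly, and 0 after a further quantile normalization. Adjusted for RNA integrity, on those 19 arrays, both counts were 0. Arid5b, a DNA-binding protein, rose with silica by 0.59 ± 0.08 (adjusted p = 0.0054, limma) and stood at 0.39 ± 0.08 with sand (adjusted p = 0.213, limma). Rab27b, a GTPase of vesicle secretion, rose with sand by 0.62 ± 0.10 (adjusted p = 0.038, limma) and stood at 0.50 ± 0.10 with silica (adjusted p = 0.126, limma). Sand minus silica was -0.19 ± 0.08 for Arid5b and 0.11 ± 0.10 for Rab27b, neither past the threshold.

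**Figure D5:**
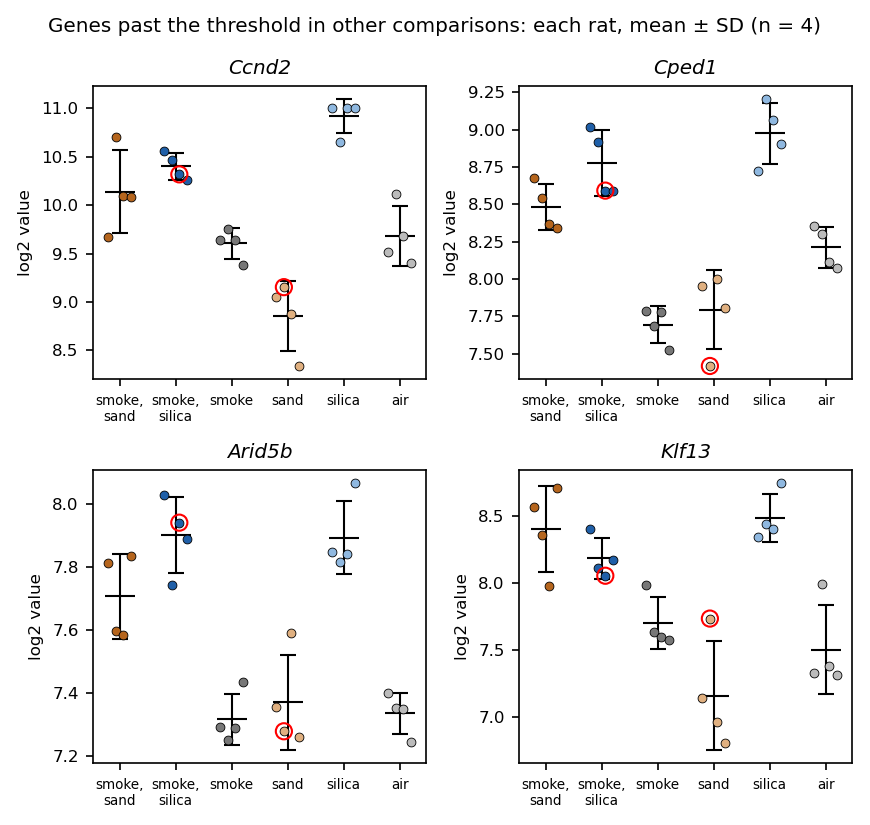
Log2 values (y axis) of Ccnd2, Cped1, Arid5b and Klf13 in all 6 groups of 4 rats; points are rats, bars the mean ± SD, and red circles mark rats 604 and 302. In all 4 panels the means of smoke with sand and smoke with silica lie above that of smoke alone. The mean of sand without smoke lies below that of silica without smoke. All 4 genes passed between sand and silica without smoke, and Cped1 and Arid5b passed against smoke alone. These shared orders are therefore no independent result.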

How the data were processed

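Lung RNA of 24 rats was measured on 1 array each. The authors deposited log2 values. RMA made them, per the submitters' processing notes, by background correction, quantile normalization and summary over probes. Its version is not given in the sources used here. RMA removes a shift common to most genes and compresses dim ones. Of 31099 probe sets, 20826 had 1 symbol in the platform annotation, and the brightest per gene gave 14217 genes.

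Groups and animal numbers came from the labels. One model with 6 group means was fitted with limma 3.58.1 (R 4.3.3, lmFit and eBayes, 18 residual degrees of freedom), two-sided, with Benjamini-Hochberg adjustment over all genes at 0.05. The rats are separate animals, so the p-values set group differences against the spread between animals. Any exposure condition shared by a whole group cannot be told apart from its particle. No batch was in the labels used, so none was entered. The scripts were tested on simulated data.

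Members and lists were chosen with earlier results of these data known. Named genes were, per direction, up to 15 of smallest p without overlap (none passed), 10 more without rat 604, up to 3 per list, the leading genes of the difference between contrasts, and a fixed set; others are said to be chosen after their values were seen. The alternatives were moderation with trend, a filter on dim genes, the mean of probe sets, single probe sets, a 1.5-fold minimum, fewer arrays, array weights, centring, further quantile normalization, the RNA integrity number, a threshold of 0.10 and rats left out. A test of probe sets lacking a single symbol was added after seeing the data.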

Additional observations from a re-analysis of the deposited data

Results flagged for a closer look

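Among 308 groups of 4 rats, 21 values lay apart from their group mates by Dixon's criterion, where chance gives about 1 in 20 groups. Of the rats given smoke and sand, rat 406 stood at 9.31 for Pcyox1 (mates 9.67 to 9.70), 6.00 for Ccna2, 10.88 for Col1a1, 10.19 for Ccl2 (mates 7.11 to 7.15), 7.17 for the T cell receptor-associated Cd5 and 7.62 for the proliferation list mean. Rat 405 stood at 6.70 for the chemokine Cxcl2 and 6.62 for the mast cell and eosinophil list mean, rat 402 at 10.39 for the splicing list mean, and rat 404 at 8.30 for Aurkb (mates 9.88 to 10.17). Of the rats given smoke and silica, rat 604 stood at 8.92 for the ribonucleotide reductase subunit Rrm1, 8.69 for Krt5 (mates 5.45 to 5.66), 8.14 for Krt17, 9.83 for Krt6c, 8.41 for Sprr1a, 9.52 for Sox18, 8.01 for the basal airway list mean and 7.96 for the cytokine list mean. Rat 605 stood at 11.82 for Gpx2, rat 603 at 6.13 for the ATP receptor P2rx7 and rat 602 at 7.47 for the atrial myosin light chain Myl7, against 4.96 to 5.27 in its mates.

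Sand minus silica differed between smoke and no smoke for Ccnd2, by 1.80 (adjusted p = 0.0176, limma). For the Rab-like GTPase Rabl3 all 4 sand rats lay below all silica rats under smoke, by -0.46, and above them without smoke, by 0.27. The difference between these contrasts was -0.73 ± 0.14 and did not pass (adjusted p = 0.0848, limma).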

How the results depend on the processing

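Sand against silica under smoke gave 0 genes with trend and robust moderation, the filter on dim genes, the mean of probe sets, single probe sets, the 1.5-fold minimum, centring, the RNA integrity number, and without rat 302 or rats 302, 104 and 604. It gave 1 gene on the 8 arrays alone (Slbp), 11 with array weights, 1 after quantile normalization again (Kctd4), 2 at an adjusted p under 0.10 (Kctd4 and Slbp), and 0 to 1 with each rat left out (Tmem33 without rat 404, Kctd4 without rat 605). Probe sets with several or no symbol, added after seeing the data, gave 0. The difference between contrasts gave 1 gene, against 2 with the filter, 4 with the mean of probe sets, 19 by probe set, 0 on the compared arrays, 12 with weights, 6 centred, 3 after quantile normalization, 0 with the RNA integrity number, 7 at 0.10, 4 without rat 302, 5 without the 3 rats and 0 to 9 with each rat left out. Sand against smoke alone gave 2, against 1 with the filter, 10 by probe set, 17 with weights, 0 after quantile normalization, 0 with the RNA integrity number, 5 without rat 302, 6 without the 3 rats and 0 to 7 with each rat left out. Silica against smoke alone gave 2, against 5 with the mean of probe sets, 4 by probe set, 9 on the compared arrays, 342 with weights, 0 with the RNA integrity number, 66 without rat 302, 14 without the 3 rats and 2 to 3 with each rat left out. Without smoke the count of 39 was 19 with the filter, 154 by probe set, 6 on the compared arrays, 82 with weights, 2 with the RNA integrity number, 61 at 0.10 and 25 to 54 with each rat left out. Fewer genes, arrays or rats enter some of these fits by construction, and otherwise the cause was not tested. Of 2376 gene values under alternatives, 32 changed sign with none past the threshold, and 14 values of 9 genes passed. Of 646 list medians, 3 moved by more than the spread between rats. No paired analysis was possible because animal numbers are not shared between groups. The number of arrays limits the precision, with a median standard error of 0.11.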
